A study of Hydractinia symbiolongicarpus with 45 samples.

Results

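The egg of the colonial hydroid Hydractinia symbiolongicarpus carried abundant mRNA for 4 predicted transcription factors that are best known from stress and immune responses: Xbp1 (HyS0094.6), Hif1a (HyS0047.17), NF-kB (HyS0003.549) and MafF (HyS0002.413). They were chosen by name out of 22022 protein-coding gene models. The names follow the study's best match of each predicted protein to a curated protein database, and such a match does not show that the function is shared. The study listed such factors for a level over 50 TPM in a rRNA-depleted egg library and an egg level more than 5-fold above that of some other stage of these same samples, so that their high egg level and their low larval level are a description here, and a fall from the egg is not independent evidence.

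During the maternal-to-zygotic transition an embryo lives at first on mRNA loaded into the egg, and only later transcribes its own genome and clears the maternal mRNA. Before that, poly(A) tails are lengthened or shortened in the cytoplasm, which changes how much of an mRNA is caught by poly(A) selection without changing how much is there. In vertebrates, Xbp1 is a leucine zipper activator of the unfolded protein response, made active when its mRNA is spliced in the cytoplasm. Hif1a is the oxygen-regulated subunit of hypoxia-inducible factor, NF-kB proteins are released from cytoplasmic inhibitors by immune signals, and MafF is a small Maf protein that binds antioxidant response elements with a larger partner. Xbp1, Hif1a and NF-kB are controlled to a large part after transcription, and MafF acts with a partner, so an mRNA level is not a measure of their activity.

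The RNA came from whole wild-type eggs, embryos and larvae, in clutches labelled A to G, with gametes taken from a few breeder colonies. Poly(A)+ libraries covered the egg (clutches A, C and D), 0.5 and 1 h after fertilization (A), 2, 3 and 4 h (A and C), 5 and 6 h (B), 7 h (B and D), and larvae at 24, 48 and 72 h (E and F). Each sample up to 7 h was split, and its other portion was depleted of rRNA, which does not depend on a tail (at 7 h without treatment this library was available for clutch B alone). At 7 h, embryos of clutches D and G had been kept from soon after fertilization in 20 µM Triptolide, an inhibitor of RNA polymerase II transcription, dissolved in 0.5% DMSO, or in 0.5% DMSO alone. A pilot pair of libraries at 1 h completes the 45. A stage with 1 clutch has no replicate, and stages from different clutches differ in clutch as well as in age.

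Total estimated counts ranged from 3107733 to 32015981 in the 25 poly(A)+ and from 3503063 to 20464403 in the 18 rRNA-depleted libraries. The 4 transcripts had between 277 and 13499 counts in each of these 43 libraries, so that counting error alone is at most 6.01% of a value. Their counts were whole numbers in all 43 libraries and no other model had the same counts. Levels are given as TPM, transcript shares that divide counts by coding length and are scaled to a fixed total in each library. In whole embryos, fewer cells with a transcript and less transcript per cell cannot be told apart. The label of the treatment held: HyS0062.47, a forkhead-domain gene switched on in the embryo, had 493 and 531 TPM in the poly(A)+ DMSO libraries against 0.583 and 0.456 with Triptolide. Histone cluster sequences (167 models) took 0.49 to 0.57% of TPM in the rRNA-depleted egg libraries but 11.2 to 20.6% from 4 h on without Triptolide, which lowers the TPM of every other transcript there. Changes are therefore also given relative to the median log2 change over models with a mean of at least 50 counts, 11889 of them in the poly(A)+ and 10361 in the rRNA-depleted libraries.

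In the egg, Xbp1 was the highest of the 4 in both library types. Its poly(A)+ level was 351, 389 and 401 TPM in clutches A, C and D (380 ± 26.1, mean ± SD, n = 3), and its rRNA-depleted level 427, 473 and 481 TPM (460 ± 29.6, n = 3), which ranked 290 and 162 among all models. Hif1a was steady between clutches. Its mean was 200 ± 12.9 TPM with poly(A) selection and 224 ± 13.9 TPM with rRNA depletion (n = 3 each). NF-kB and MafF differed more between clutches. In clutches A, C and D, NF-kB had 225, 337 and 315 TPM with poly(A) selection and 205, 321 and 296 TPM with rRNA depletion. MafF had 144, 220 and 252 TPM with poly(A) selection and 220, 405 and 412 TPM with rRNA depletion. Clutch A was the lowest of the 3 in each set, and for NF-kB and MafF its value lay well apart from the other two. The order of the means below Xbp1 was NF-kB, MafF, Hif1a with poly(A) selection and MafF, NF-kB, Hif1a with rRNA depletion, and the values of these 3 overlapped, except that every poly(A)+ egg library of NF-kB was above those of Hif1a.

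**Figure D1:**
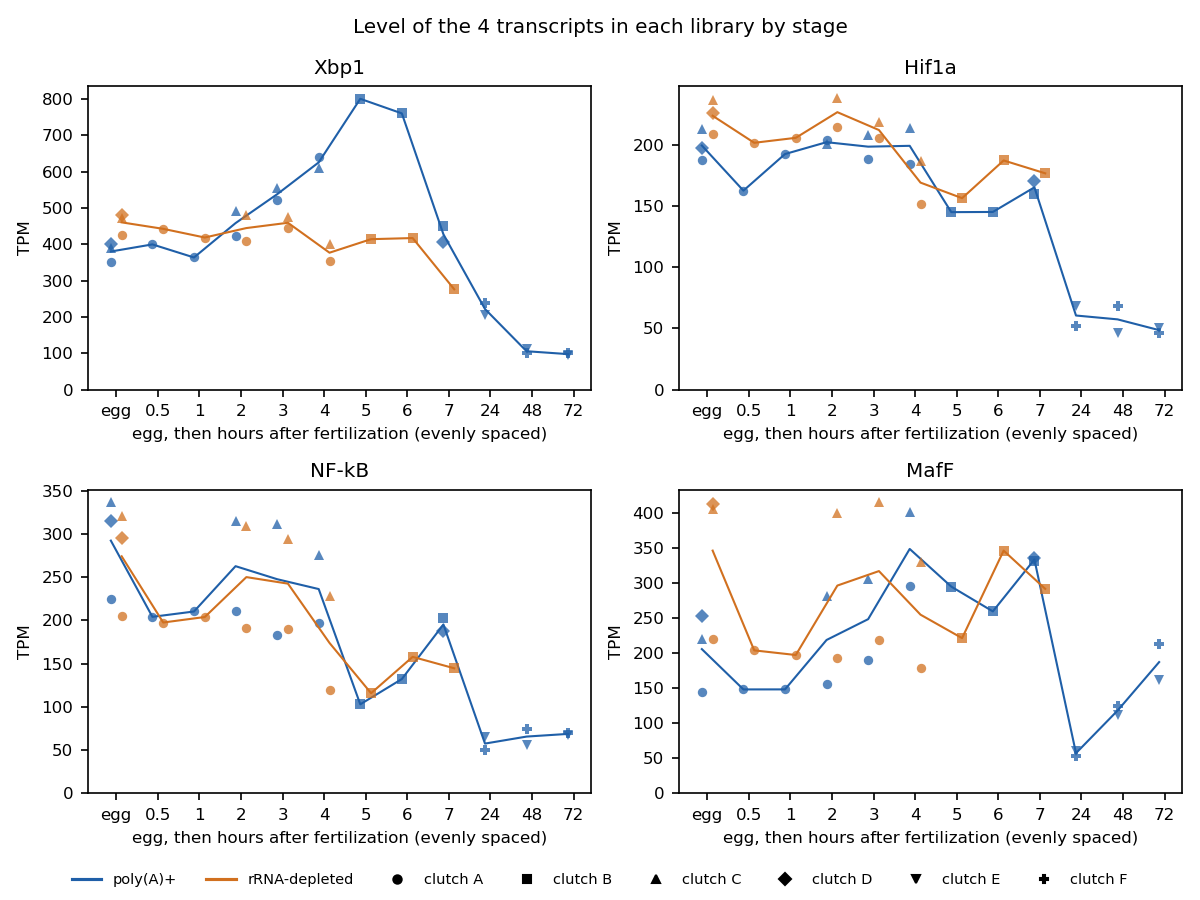
Level of each transcript in every library (TPM, linear axis from 0) at evenly spaced stages, poly(A)+ in blue and rRNA-depleted in orange, with a symbol for each clutch and lines through the stage means. Poly(A)+ Xbp1 climbed from a mean of 380 TPM in eggs to 801 TPM at 5 h. Its rRNA-depleted level was 460 TPM in eggs and 414 TPM at 5 h. Without the histone cluster sequences, which the plotted levels include, these were 463 and 522 TPM. The difference between library types at 5 h was not tested. MafF was low at 24 h (56.9 TPM) and higher at 72 h (187 TPM).

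Over the first 2 h none of the 4 passed the test against the egg. Few of all models passed then, so this says little about the 4. Both poly(A)+ Xbp1 libraries at 2 h were nonetheless above every egg library. At 0.5, 1 and 2 h, 0 of 4 passed an adjusted p of 0.05 in edgeR's quasi-likelihood test in either library type, 0 of 4 had an unadjusted p under 0.05, and 0 of 4 passed in DESeq2. The share of all models that passed was 0.00528%, 0.296% and 6.39% of 18928 at 0.5, 1 and 2 h in poly(A)+ libraries. In rRNA-depleted libraries it was 0% of 15944 at all 3 times, where 598, 196 and 162 models had an unadjusted p under 0.05. At 3 and 4 h, 1 and 2 of the 4 passed in poly(A)+ libraries, beside 10.6% and 19.5% of all models, and 0 of 4 in rRNA-depleted libraries, beside 0.401% and 3.46%, with 0 of 4 at an unadjusted p under 0.05 and 0 of 4 in DESeq2.

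Poly(A)+ Xbp1 mRNA rose over the first hours of development and was back near its egg level by 7 h. The level was 424 and 493 TPM at 2 h, 521 and 555 TPM at 3 h, and 641 and 611 TPM at 4 h in clutches A and C. It reached 801 TPM at 5 h and 761 TPM at 6 h in clutch B, and was 449 and 406 TPM at 7 h in clutches B and D. From 2 h on to 6 h every poly(A)+ library was above all 3 egg libraries. The fitted log2 change from the egg was 0.49 (SE 0.15, adjusted p = 0.0471) at 3 h, 0.71 (SE 0.15, adjusted p = 0.00211) at 4 h and 1.06 (SE 0.18, adjusted p = 0.000509) at 5 h, or 1.64-fold and 2.09-fold at 4 and 5 h, and 1.01 (adjusted p = 0.000422) at 6 h. By 7 h the change was 0.16 (95% interval -0.16 to 0.48, adjusted p = 0.416), no longer distinguishable from the egg. With the clutch as a replicate block the 4 h call held (0.73, adjusted p = 0.0199), while those at 3, 5 and 6 h did not (0.51, 0.91 and 0.86, adjusted p = 0.157, 0.211 and 0.193). Clutch B, the source of the 5 and 6 h libraries, has no egg library and is linked to the egg only through 7 h in that fit. Without the 4 h library of clutch A the 4 h change was 0.55 (adjusted p = 0.0793), and the 3 h call was lost without any 1 of its 5 libraries (0.43 to 0.48, adjusted p = 0.131 to 0.322).

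The rRNA-depleted Xbp1 level did not pass the test for a rise at any stage. It was 408 and 482 TPM at 2 h, 444 and 475 TPM at 3 h, 354 and 400 TPM at 4 h, 414 TPM at 5 h and 417 TPM at 6 h. Without the histone cluster sequences the last 3 stages read 445, 522 and 516 TPM, beside 463 TPM in the egg. The fitted change from the egg lay between -0.08 and 0.24 on the log2 scale from 0.5 to 6 h. It was 0.24 (SE 0.10, adjusted p = 0.200) at 5 h and 0.18 (SE 0.10, adjusted p = 0.193) at 6 h, or 0.30 and 0.32 relative to the median model, and the 6 h change passed with RLE size factors, the median-ratio scaling that DESeq2 uses (0.30, adjusted p = 0.0451) and in DESeq2 (0.30, adjusted p = 0.0108). Whether the rise at 5 and 6 h differed between library types was not tested. At 7 h the single library had 276 TPM, a change of -0.37 (SE 0.10, adjusted p = 0.0125) and -0.18 relative to the median model, which itself moved by -0.20. That call was lost with RLE size factors (-0.19, adjusted p = 0.158), in DESeq2 (-0.19, adjusted p = 0.113) and when only the 2 groups were fitted (-0.26, adjusted p = 0.125).

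**Figure D2:**
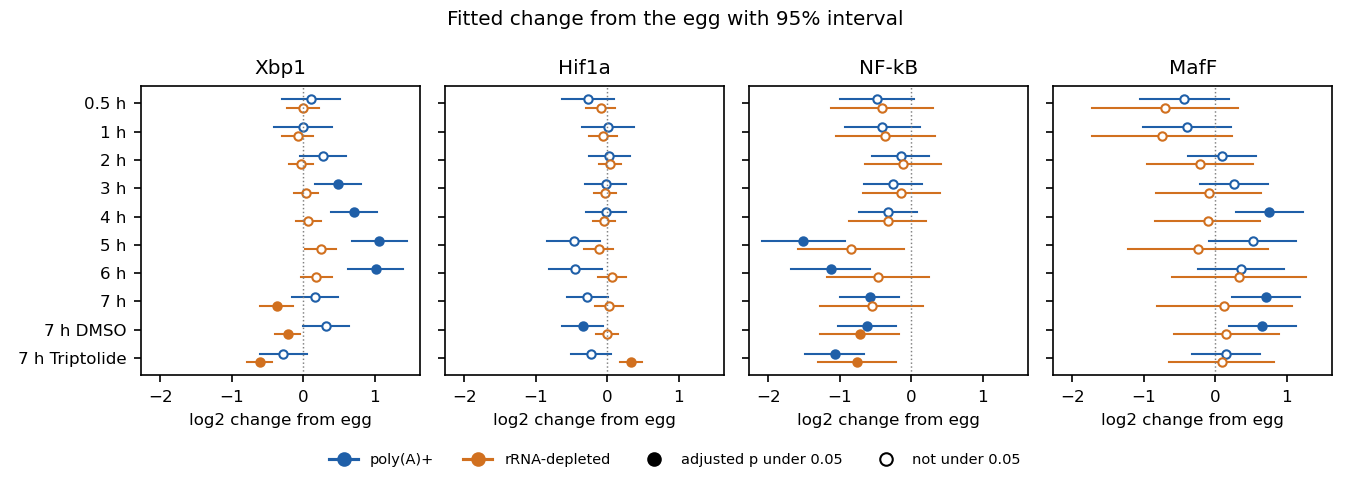
Fitted log2 change from the egg with its 95% interval, for each transcript (panels), stage or treatment (rows) and library type (blue, poly(A)+; orange, rRNA-depleted), filled where the adjusted p was under 0.05. Xbp1 is filled to the right at 3 to 6 h in poly(A)+ only, from 0.49 to 1.06, and NF-kB lies to the left of 0 in every row.

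Hif1a held its egg level through the same hours. Poly(A)+ libraries of clutches A and C had 204 and 201 TPM at 2 h, 189 and 208 TPM at 3 h, and 185 and 214 TPM at 4 h, all within or close to the 188 to 213 TPM of the eggs. The fitted change at 4 h was -0.02 with poly(A) selection (95% interval -0.30 to 0.27) and -0.05 in rRNA-depleted libraries (95% interval -0.20 to 0.11), which leaves out a change of 1.5-fold in either direction. In clutch B the poly(A)+ level was 145 TPM at 5 and at 6 h, with changes of -0.47 and -0.45 that missed the threshold (adjusted p = 0.0735 and 0.0657) and that passed it in DESeq2 (-0.39 and -0.37, adjusted p = 0.0266 and 0.0244). At 7 h it was 160 and 170 TPM untreated and 165 and 138 TPM in DMSO. The DMSO change of -0.34 (SE 0.14, adjusted p = 0.0445) was lost with the clutch as a replicate block (-0.23, adjusted p = 0.470) and with RLE size factors (-0.30, adjusted p = 0.0643). In rRNA-depleted libraries no embryonic stage without Triptolide passed the test for Hif1a, while DESeq2 called it higher at 7 h (0.20, adjusted p = 0.0284) and in DMSO (0.14, adjusted p = 0.0329).

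NF-kB lay below its egg level in poly(A)+ libraries from 5 to 7 h, but not as a steady fall, as it rose over these hours within clutch B. In clutches A and C its poly(A)+ level was 211 and 314 TPM at 2 h, 184 and 312 TPM at 3 h, and 197 and 275 TPM at 4 h. In clutch B it was 103 TPM at 5 h and 132 TPM at 6 h, then 203 and 187 TPM at 7 h in clutches B and D. All 4 of the libraries from 5 to 7 h were below the lowest egg library, but clutch B has no egg library of its own. Clutch and stage cannot be told apart at 5 and 6 h. At 4 h the change did not pass (-0.32, SE 0.19, adjusted p = 0.315). The fitted change was -1.51 (SE 0.27, adjusted p = 0.000749) at 5 h, -1.13 (SE 0.26, adjusted p = 0.00316) at 6 h and -0.58 (SE 0.19, adjusted p = 0.0195) at 7 h. With the clutch as a replicate block these were -1.67, -1.29 and -0.70 (adjusted p = 0.0110, 0.0237 and 0.0358). The 7 h call was lost without the library of clutch D (-0.54, adjusted p = 0.123). In DMSO the level was 184 and 178 TPM and the change -0.62 (SE 0.19, adjusted p = 0.0125), which was lost without either DMSO library (-0.61 and -0.63, adjusted p = 0.0675 and 0.0669).

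The rRNA-depleted NF-kB level also lay below every egg library from 5 to 7 h, though none of these untreated stages passed the test. It was 191 and 309 TPM at 2 h, 190 and 295 TPM at 3 h, 119 and 228 TPM at 4 h, then 116, 158 and 144 TPM at 5, 6 and 7 h. In each of clutches A and C the 4 h library was the lowest of that clutch. Across clutches the change at 4 h was -0.33 (SE 0.24, adjusted p = 0.816), but with the clutch as a replicate block it was -0.28 (SE 0.07, adjusted p = 0.0287). At 7 h in DMSO the level was 140 and 137 TPM, a change of -0.72 (SE 0.25, adjusted p = 0.0326), or -0.81 (adjusted p = 2.98e-06) with the block. Relative to the median model it was -0.57. The unblocked call was lost with RLE size factors (-0.58, adjusted p = 0.0730) and without either egg library of clutches C and D (-0.61 and -0.67, adjusted p = 0.0919 and 0.0792) or either DMSO library (-0.75 and -0.70, adjusted p = 0.107 and 0.145).

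MafF rose in poly(A)+ libraries. Its level was 156 and 280 TPM at 2 h, 190 and 306 TPM at 3 h, and 296 and 400 TPM at 4 h in clutches A and C, so each clutch climbed while clutch A stayed below clutch C. At 5, 6 and 7 h it was 294, 259 and 331 TPM in clutch B, and 335 TPM at 7 h in clutch D. The fitted change was 0.75 (SE 0.22, adjusted p = 0.0218) at 4 h, or 1.69-fold, and 0.92 (SE 0.19, adjusted p = 0.00443) with the clutch as a replicate block. It was 0.70 (SE 0.22, adjusted p = 0.0148) at 7 h, which the block did not keep (0.46, adjusted p = 0.222). In DMSO it was 0.66 (SE 0.22, adjusted p = 0.0207), again lost with the block (0.42, adjusted p = 0.234), on leaving out the egg library from clutch A or C (0.41 and 0.61, adjusted p = 0.155 and 0.0628) and without either DMSO library (0.59 and 0.72, adjusted p = 0.107 and 0.0568). When the clutch A egg library was left out, the 4 h change was 0.54 (adjusted p = 0.139), without that of clutch C 0.74 (adjusted p = 0.0609), and without the 4 h library of clutch A or C 0.84 and 0.56 (adjusted p = 0.0649 and 0.224). The 7 h change was 0.47 (adjusted p = 0.108) on leaving out the egg library from clutch A, and 0.66 and 0.68 (adjusted p = 0.0736 and 0.0794) without the 7 h library of clutch B or D.

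In rRNA-depleted libraries MafF had 193 and 399 TPM at 2 h, 218 and 415 TPM at 3 h, 179 and 330 TPM at 4 h, and 221, 346 and 291 TPM at 5, 6 and 7 h. The egg libraries spanned 220 to 412 TPM, and outside this span lay only clutch A, below it, and clutch C at 3 h, just above it. The change at 4 h was -0.11 (95% interval -0.84 to 0.63), an interval whose upper end lies below the poly(A)+ value of 0.75 and above the lower end of the poly(A)+ interval (0.28 to 1.22). With the clutch as a replicate block it was 0.06 (SE 0.08).

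At 5, 6 and 7 h the share of all models that passed was 20.0%, 29.7% and 48.3% in poly(A)+ libraries, beside 2 of the 4 transcripts each time: Xbp1 up and NF-kB down at 5 and 6 h, MafF up and NF-kB down at 7 h. In rRNA-depleted libraries it was 6.56%, 28.7% and 42.7%, beside 0, 0 and 1 (Xbp1 down) of 4. At 5 and 6 h, 2 and 0 of the 4 had an unadjusted p under 0.05 there, and 0 and 1 (Xbp1 up) passed in DESeq2. In DMSO at 7 h, 50.6% of models passed in each library type, beside 3 of 4 with poly(A) selection (MafF up, Hif1a and NF-kB down) and 2 of 4 with rRNA depletion (Xbp1 and NF-kB down). The Xbp1 change in the latter was -0.22 (SE 0.08, adjusted p = 0.0395), or -0.06 relative to the median model, and was lost with RLE size factors (-0.07, adjusted p = 0.483), in DESeq2 (-0.07, adjusted p = 0.452) and on leaving out the egg library from clutch C or D (-0.21 and -0.19, adjusted p = 0.0879 and 0.115) or either DMSO library (-0.21 and -0.22, adjusted p = 0.148 and 0.132). From 6 h on, 0 to 3 of the 4 passed in a library type. At these and at the earlier stages, so few transcripts cannot show a departure from the shares of all models.

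Since both libraries of a sample came from the same RNA, the ratio of the 2 levels within a sample compares the poly(A)+ with the rRNA-depleted level of a transcript in the same clutch and stage. The ratio can still differ between clutches, and from 5 to 7 h it comes from clutch B alone without treatment. Even without the histone cluster sequences, the median model moved from the egg in rRNA-depleted libraries. Its log2 TPM changed by -0.11, -0.13, -0.17 and -0.27 at 4, 5, 6 and 7 h. In poly(A)+ libraries it changed by 0.06, -0.04, -0.04 and -0.01. Part of a climb in the ratio from 4 h on was thus common to many models, and the ratios below are not set against the median. For Xbp1 this ratio, taken without the histone cluster sequences, was 0.819, 0.817 and 0.828 in eggs of clutches A, C and D. It was 0.899 and 0.865 at 0.5 and 1 h, 1.03 and 1.02 at 2 h, 1.16 in each clutch at 3 h, 1.46 and 1.35 at 4 h, 1.54 at 5 h, 1.48 at 6 h and 1.32 at 7 h. The samples of a stage lay close together, and no later sample overlapped the eggs. In clutches D and G it was 1.25 and 1.07 in DMSO and 1.11 and 1.03 with Triptolide. MafF also climbed, from 0.651, 0.540 and 0.608 in the eggs to 0.804 and 0.699 at 2 h, 0.858 and 0.728 at 3 h, and 1.33 and 1.08 at 4 h, with clutch A above clutch C at each of these stages. It was 1.06 at 5 h but 0.607 at 6 h, back among the eggs, and 0.920 at 7 h. Hif1a stayed between 0.802 and 1.02 up to 4 h and lay between 0.628 and 0.737 in clutch B from 5 to 7 h. NF-kB stayed between 0.951 and 1.33 up to 4 h, fell to 0.706 and 0.678 at 5 and 6 h, and was 1.14 at 7 h.

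**Figure D3:**
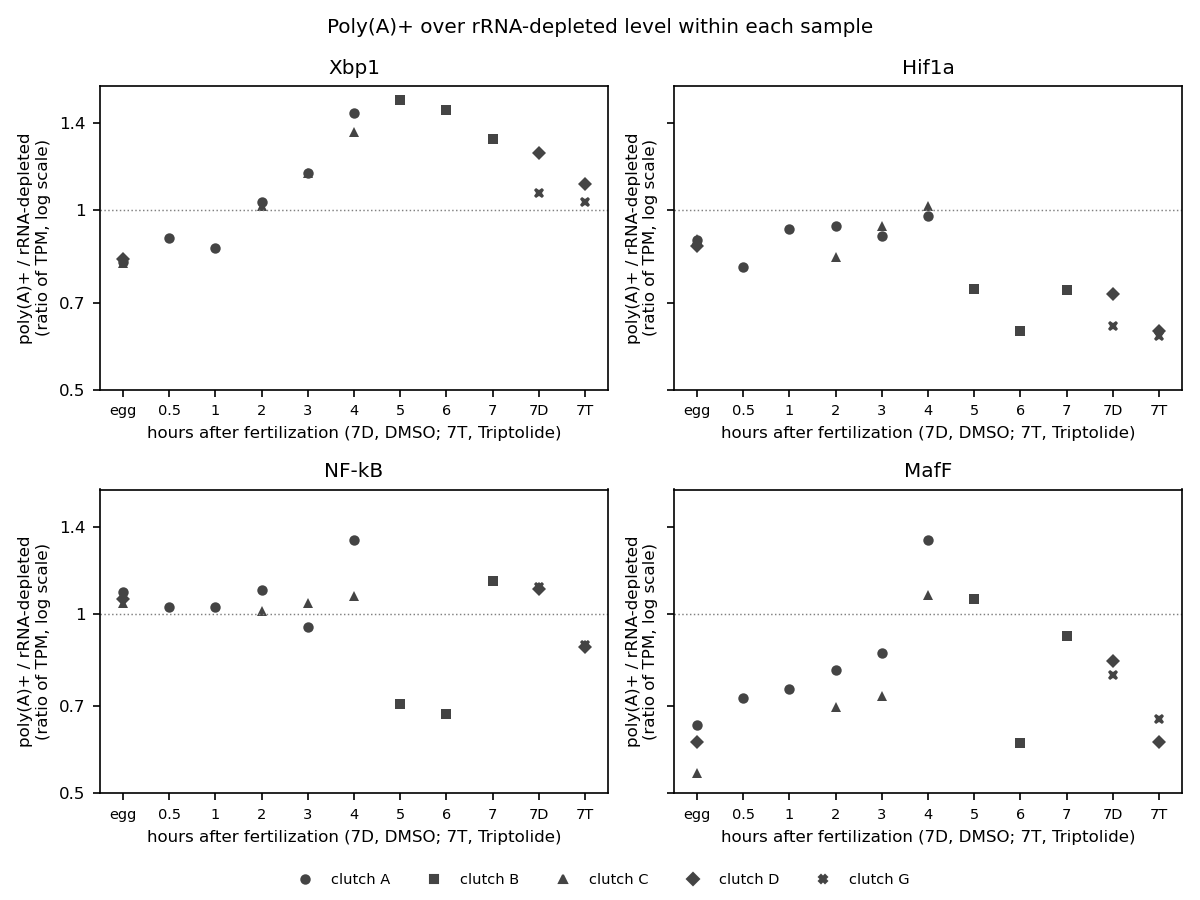
Ratio of the poly(A)+ to the rRNA-depleted level (TPM without histone cluster sequences, log axis) within each sample, by stage and treatment, with a symbol for each clutch. Xbp1 climbs from 0.817 to 0.828 in the eggs to 1.54 at 5 h, and MafF from 0.540 to 0.651 in the eggs to 1.08 and 1.33 at 4 h. The ratios are not set against the median model.

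The difference between library types was tested as poly(A)+ change minus rRNA-depleted change from the egg, in a fit over all 43 libraries. At 2, 3 and 4 h, 0, 0 and 1 of the 4 passed, beside 4.06%, 6.92% and 9.32% of 19461 models. At 2 and 3 h, 0 and 1 of the 4 had an unadjusted p under 0.05, and 0 and 1 passed in DESeq2. For Xbp1 the difference was 0.35 (SE 0.19, adjusted p = 0.611) at 2 h, 0.50 (SE 0.19, adjusted p = 0.142) at 3 h and 0.68 (SE 0.19, adjusted p = 0.0170) at 4 h. With the sample behind each pair of libraries as a replicate block, the same differences passed at all 3 times (0.35, 0.49 and 0.67, adjusted p = 0.0351, 0.00146 and 2.99e-05), beside 12.5%, 16.1% and 19.8% of models. MafF at 4 h had a difference of 0.90 (SE 0.40, adjusted p = 0.213) that passed with the pairing (0.90, SE 0.14, adjusted p = 1.63e-05). Hif1a and NF-kB had differences of 0.07 and 0.05 at 4 h, with paired standard errors of 0.11 and 0.12. The unpaired Xbp1 call at 4 h was lost when the poly(A)+ library from clutch A was left out (0.51, adjusted p = 0.174) or the rRNA-depleted library of clutch C (0.61, adjusted p = 0.103).

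In the egg itself, 27.5% of models differed between library types, and 0 of the 4 passed in the fit without pairing, where 1 had an unadjusted p under 0.05 and 0 passed in DESeq2. With the pairing, MafF was lower in poly(A)+ than in rRNA-depleted egg libraries (log2 difference -0.50, SE 0.09, adjusted p = 3.92e-05), in 3 of 3 samples. NF-kB was higher (0.33, SE 0.08, adjusted p = 0.000692), or 1.26-fold. Its ratio of TPM without histone cluster sequences was only 1.09, 1.04 and 1.06 in eggs of clutches A, C and D. TPM and the fit are scaled differently. Unpaired, MafF had -0.53 (SE 0.25, adjusted p = 0.135), which passed without the rRNA-depleted egg library of clutch A (-0.75, adjusted p = 0.0302). With the pairing 39.8% of models passed. In DMSO embryos at 7 h the difference for Xbp1 was 0.62 (SE 0.19, adjusted p = 0.0400), beside 7.74% of models, and in Triptolide embryos 0.57 (SE 0.19, adjusted p = 0.0446), beside 11.9%. Relative to the median model these were 0.45 and 0.41. Both held with the pairing (0.61 and 0.57, adjusted p = 0.000145 and 0.000233) but not with RLE size factors (0.44 and 0.39, adjusted p = 0.174 and 0.216), nor without the histone cluster models, a fit added after the data were seen (0.40 and 0.34, adjusted p = 0.239 and 0.309). Leaving out 1 library lost the DMSO call in 9 of 10 cases, all but the rRNA-depleted egg library of clutch A (0.55 to 0.68, adjusted p = 0.0632 to 0.158), and the Triptolide call in 10 of 10 (0.52 to 0.63, adjusted p = 0.0510 to 0.184). MafF had a difference of 0.59 (SE 0.40, adjusted p = 0.529) in DMSO that passed with the pairing (0.56, adjusted p = 0.00442). Hif1a had differences of -0.26 in DMSO and -0.32 with Triptolide (adjusted p = 0.488 and 0.263), or -0.43 and -0.49 relative to the median model, and both passed in DESeq2 (-0.44 and -0.51, adjusted p = 0.00171 and 9.04e-05), the latter also with the pairing (-0.32, adjusted p = 0.0295).

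Xbp1 was lower with Triptolide than with DMSO in both library types. The poly(A)+ level was 488 and 421 TPM in DMSO and 309 TPM in each Triptolide library of clutches D and G, a log2 change of -0.60 (SE 0.17, adjusted p = 0.0144), or 1.51-fold lower. Without the histone cluster sequences the rRNA-depleted level was 391 and 394 TPM in DMSO and 278 and 299 TPM with Triptolide. The groups did not overlap in either type. The rRNA-depleted change was -0.40 (SE 0.09, adjusted p = 0.00568). In rRNA-depleted libraries the median model rose by 0.23 on this scale, or by 0.02 with RLE size factors, and by 0.01 in poly(A)+ libraries. Relative to the median, Xbp1 changed by -0.61 with poly(A) selection and by -0.62 with rRNA depletion. The poly(A)+ call was lost without the DMSO library of clutch D (-0.52, adjusted p = 0.0949) or either Triptolide library (-0.61 and -0.58, adjusted p = 0.0840 and 0.0928), and the rRNA-depleted call without the Triptolide library of clutch D (-0.35, adjusted p = 0.0600).

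Hif1a did not fall with Triptolide. Its poly(A)+ level was 165 and 138 TPM in DMSO and 169 and 166 TPM with Triptolide, a log2 change of 0.11 (SE 0.15, adjusted p = 0.644). Its rRNA-depleted level without histone cluster sequences was 227 and 216 TPM in DMSO and 270 and 271 TPM with Triptolide, a change of 0.34 (SE 0.08, adjusted p = 0.00749). That is 0.11 above the median model, the same distance as the 0.10 of the poly(A)+ libraries. The call was lost with RLE size factors (0.13, adjusted p = 0.253), in DESeq2 (0.13, adjusted p = 0.132) and without the DMSO library of clutch G (0.30, adjusted p = 0.0689).

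NF-kB and MafF were lower with Triptolide in poly(A)+ libraries without passing the test. NF-kB had 184 and 178 TPM in DMSO and 135 and 137 TPM with Triptolide, a log2 change of -0.45 (SE 0.21, adjusted p = 0.139). MafF had 328 and 287 TPM in DMSO and 221 and 224 TPM with Triptolide, a log2 change of -0.51 (SE 0.25, adjusted p = 0.158). In both, the Triptolide libraries lay below the DMSO libraries, and when only these 2 groups were fitted both passed (-0.46 and -0.51, adjusted p = 0.00146 and 0.00131). In rRNA-depleted libraries NF-kB changed by -0.04 (SE 0.27, adjusted p = 0.935) and MafF by -0.07 (SE 0.37, adjusted p = 0.912), which relative to the median model is -0.27 and -0.30, and the intervals of -0.63 to 0.56 and -0.88 to 0.74 do not leave out the poly(A)+ changes. Fitted on their 2 groups alone, these passed as well (-0.20 and -0.23, adjusted p = 0.0379 and 0.0238). Between library types the Triptolide effect did not differ detectably for any of the 4: 0 of 4 passed, 0 of 4 had an unadjusted p under 0.05 and 0 of 4 passed in DESeq2, beside 3.52% of all models.

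**Figure D4:**
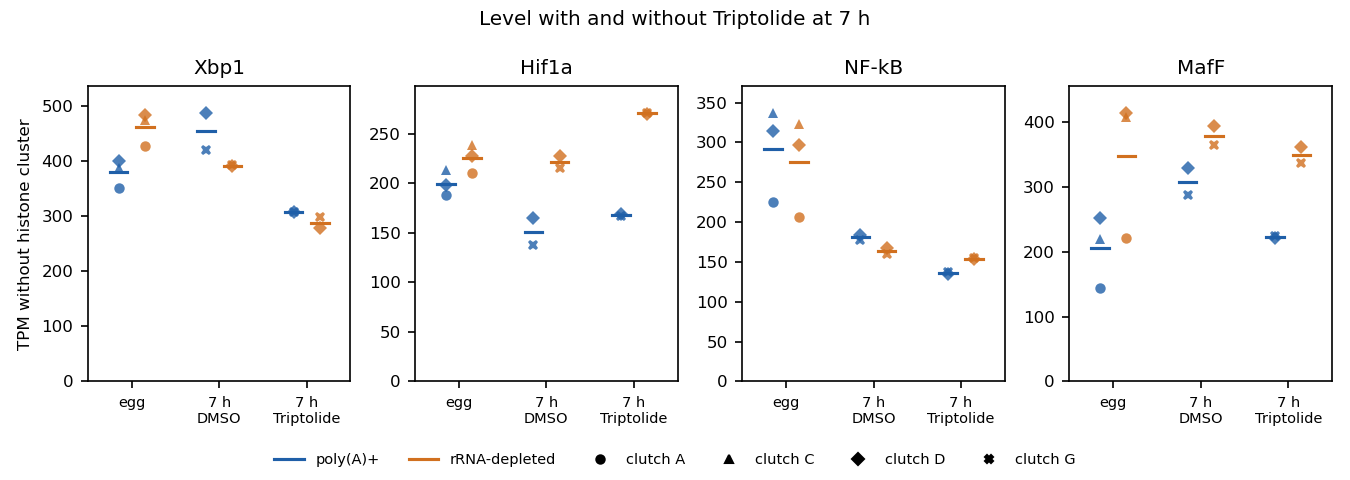
Level in egg, 7 h DMSO and 7 h Triptolide libraries (TPM without histone cluster sequences, linear axis from 0), poly(A)+ in blue and rRNA-depleted in orange, a symbol for each clutch and a bar at the mean. Xbp1 is lower with Triptolide in both library types (309 TPM against 488 and 421 TPM in poly(A)+), and Hif1a in rRNA-depleted libraries is higher with Triptolide (270 and 271 TPM against 227 and 216 TPM).

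Of all models, 23.9% passed between Triptolide and DMSO with poly(A) selection and 32.3% with rRNA depletion, beside 1 and 2 of the 4. Against the egg, 7 h Triptolide embryos had 29.4% of models passing in poly(A)+ libraries, beside NF-kB alone of the 4 (-1.07, SE 0.20, adjusted p = 0.000323). In rRNA-depleted libraries 23.4% passed, beside Xbp1 (-0.61, SE 0.08, adjusted p = 0.000210) and NF-kB (-0.76, SE 0.25, adjusted p = 0.0477) down and Hif1a up (0.34, SE 0.07, adjusted p = 0.00492). MafF stood at its egg level in Triptolide embryos, with 221 and 224 TPM in poly(A)+ libraries, inside the egg span of 144 to 252 TPM, and a fitted change of 0.15 (95% interval -0.33 to 0.62). The NF-kB call in rRNA-depleted libraries was lost without the egg library of clutch C or D or either Triptolide library (-0.76 to -0.65, adjusted p = 0.119 to 0.208), and that of Hif1a without the Triptolide library of clutch D (0.33, adjusted p = 0.0509).

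Larval poly(A)+ levels lay below every egg library for all 4 transcripts at 24 and 48 h, and for all but MafF at 72 h. Xbp1 had 205 and 239 TPM at 24 h, 111 and 99.98 TPM at 48 h, and 95 and 100.3 TPM at 72 h in clutches E and F. Hif1a had 68.7 and 52.4 TPM, 46.6 and 68.2 TPM, and 50.7 and 46.5 TPM at the same ages. NF-kB had 64.6 and 49.99 TPM, 56.2 and 74.7 TPM, and 67.6 and 69.5 TPM. MafF had 60.4 and 53.5 TPM at 24 h, 112 and 124 TPM at 48 h, and 162 and 212 TPM at 72 h, the last among its egg levels. The egg mean was 1.71, 3.30, 5.10 and 3.61 times the 24 h mean for Xbp1, Hif1a, NF-kB and MafF, and 3.89, 4.11, 4.27 and 1.099 times the 72 h mean. By these poly(A)+ means only NF-kB, at 24 h, was more than 5-fold below the egg. The values behind the study's 5-fold threshold are not known here. Over the 6792 models with over 50 TPM in a rRNA-depleted egg library, the median log2 ratio of TPM was -1.095 at 24 h and -1.62 at 72 h. Of these models, 61.0%, 29.8%, 14.0% and 25.9% had a lower 24 h ratio than Xbp1, Hif1a, NF-kB and MafF, and 40.1%, 37.8%, 35.7% and 87.0% a lower 72 h ratio.

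Among larval ages, Xbp1 fell and MafF rose. MafF rose from 24 to 48 h by a log2 change of 1.33 (SE 0.26, adjusted p = 0.00141) and from 24 to 72 h by 2.19 (SE 0.26, adjusted p = 7.92e-06), or 4.55-fold, with both clutches higher at each later age. From 48 to 72 h its change was 0.85 (SE 0.25, adjusted p = 0.106), and 0.85 (adjusted p = 0.0478) with the clutch as a replicate block. Xbp1 fell by 0.77 (SE 0.17, adjusted p = 0.00409) from 24 to 48 h and by 0.72 (SE 0.17, adjusted p = 0.00382) from 24 to 72 h on the log2 scale. NF-kB rose from 24 to 72 h by 0.72 (SE 0.21, adjusted p = 0.0168), while Hif1a changed by 0.14 (SE 0.15, adjusted p = 0.535). The stage at which a factor was lowest may have helped to list it, so a rise from that stage is not taken as independent evidence. Of all models, 16.5%, 28.4% and 1.48% passed from 24 to 48 h, 24 to 72 h and 48 to 72 h, beside 2, 3 and 0 of the 4, with 1 of 4 at an unadjusted p under 0.05 and 1 in DESeq2 in the last.

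The larval values depend on the scale. Between 24 and 72 h the median model moved by -0.49 in log2 TPM, by -0.24 in counts scaled by library size and by -0.07 in the fitted values. Relative to it, Xbp1 changed by -0.69 in TPM and -0.65 in the fit, MafF by 2.18 and 2.26, NF-kB by 0.74 and 0.80, and Hif1a by 0.17 and 0.22. Hif1a alone of the 4 changed sign between TPM (-0.31) and the fit (0.14). The NF-kB call was lost with library size scaling (0.56, adjusted p = 0.0815), without the 24 h or the 72 h library of clutch F (0.55 and 0.65, adjusted p = 0.148 and 0.0761) and when only the 2 groups were fitted (0.72, adjusted p = 0.114). Fitted on their 2 groups alone, the Xbp1 falls missed the threshold too (-0.78 and -0.72, adjusted p = 0.0755 and 0.123), and that to 48 h also without the 48 h library of clutch F (-0.54, adjusted p = 0.0557).

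Clutch A carried less MafF and NF-kB mRNA than clutch C throughout, from the egg to 4 h. The MafF level of clutch C was 1.35 to 2.07 times that of clutch A over the 8 comparisons at egg, 2, 3 and 4 h in both library types, with a median of 1.82, and was the higher one in 8 of 8. For NF-kB the ratio was 1.396 to 1.92 with a median of 1.56, again higher in 8 of 8. For Xbp1 and Hif1a it was 0.953 to 1.18 and 0.986 to 1.23, with clutch C higher in 7 of 8 each. Among 10657 models with a mean of at least 50 counts in these 16 libraries, clutch C was higher in all 8 for 35.2%, and the median log2 ratio of TPM + 1 was 0.13. A median as far from 1 as that of MafF, in either direction, was seen in 2.15% of these models, and one as far as that of NF-kB in 5.84%. These are 2 clutches only, so the difference has no replicate and was not tested. The stages 0.5 and 1 h came from clutch A alone: MafF there had 148 and 148 TPM with poly(A) selection and 203 and 197 TPM with rRNA depletion, beside 144 and 220 TPM in the egg of the same clutch, and NF-kB 204 and 210 TPM in poly(A)+ beside 225 TPM.

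**Figure D5:**
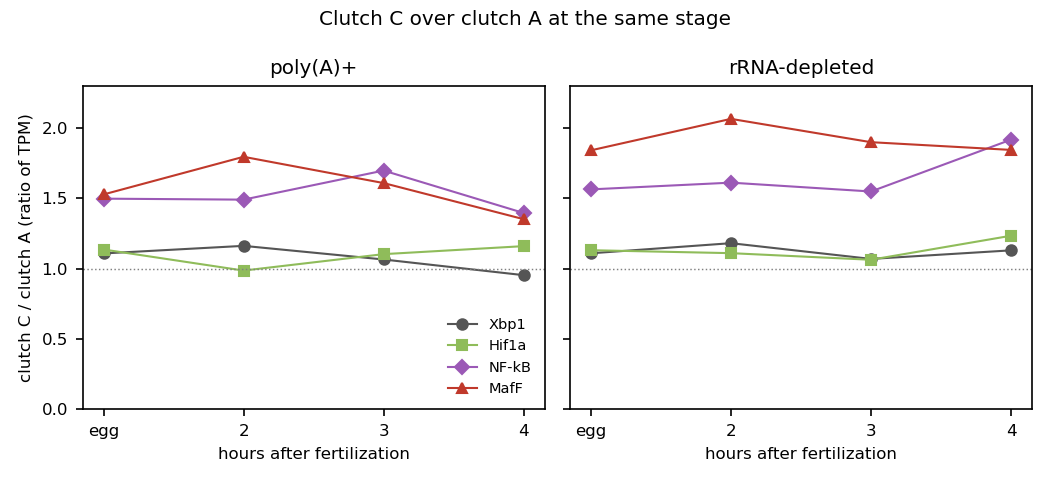
Level in clutch C divided by the level in clutch A at the same stage (ratio of TPM, linear axis from 0), poly(A)+ on the left and rRNA-depleted on the right. MafF and NF-kB lie at 1.35 or above at every stage in both library types, and Xbp1 and Hif1a lie between 0.953 and 1.23.

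Over the 12 untreated poly(A)+ stages the 4 did not share a single course. As a description over stage means of log2(TPM + 1), which share libraries and clutches, Pearson's r was 0.94 between Hif1a and NF-kB, 0.83 between Xbp1 and Hif1a, and 0.56 to 0.62 for the other 4 pairs. Many other models were closer. In likeness to Hif1a, NF-kB ranked 2253 and Xbp1 4800 among the 13474 models described next. Hif1a ranked 208 in likeness to NF-kB and 3463 in likeness to Xbp1. Among 13474 models with at least 5 TPM at some stage, the most similar course to that of Xbp1 was found for HyS0043.28 (r = 0.989, with 50.6 TPM in the egg, 78.7 at 4 h and 16.1 at 72 h) and HyS0038.153 (r = 0.987). For Hif1a they were HyS0002.235 and HyS0057.117 (r = 0.998 and 0.997), which went from 133 and 93.7 TPM in eggs to 15.9 and 6.77 TPM at 72 h. For NF-kB they were HyS0038.43 and HyS0108.15 (r = 0.987 and 0.984). For MafF the likeness was weaker, with r = 0.923 for HyS0002.412 and for HyS0005.248. HyS0002.412 bears the number before that of MafF on scaffold HyS0002, and had 91.2 TPM in the egg, 130 at 4 h, 13 at 24 h and 43 at 72 h. The deposited table gives these models no name.

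The pilot libraries at 1 h, 1 unselected and 1 poly(A)-selected, gave a further single reading. Without selection Xbp1 had 425 TPM, MafF 410, NF-kB 330 and Hif1a 208 TPM. With poly(A) selection they had 475, 258, 291 and 155 TPM. The unselected library held only 548655 counts, 90 of them from MafF. MafF, NF-kB and Hif1a read lower after poly(A) selection here, whereas Xbp1 did not. In every egg sample MafF, Hif1a and Xbp1 had a lower TPM with poly(A) selection than with rRNA depletion, whereas NF-kB did not.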

How the data were processed

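RNA-seq of whole Hydractinia eggs, embryos and larvae was analysed from 1 table of estimated counts for 22022 gene models and 45 libraries. The authors trimmed reads with Trim Galore 0.6.6 and cutadapt 1.15 and made the estimated counts with kallisto 0.46.1 on protein-coding models, in paired, stranded mode. The deposited estimated counts are not normalized, and 18.7% of values are not whole. They were rounded for the tests. TPM were computed from them with the coding lengths in the table (all multiples of 3).

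Models with at least 10 counts in sum were fitted with edgeR 4.0.16 (quasi-likelihood, TMM size factors, Benjamini-Hochberg adjustment over all models, threshold 0.05, R 4.3.3), each library type in 1 fit and both in a joint fit for differences between them. Two-sided p-values are set against the spread between clutches within a stage, pooled over the replicated stages. A stage with 1 library has no spread of its own and borrows that of the others. Its p-value thus does not measure how that stage varies between clutches. The joint fit without pairing treats both libraries of a sample as independent. The block fits measure the spread left after the clutch or sample pair is taken out. Alternatives were RLE or library size scaling, DESeq2 1.42.0, other count filters, fits of the compared groups alone, each library left out (with the dispersion trend of the full fit), the clutch or the sample pair as a replicate block, and, chosen after seeing the data, a fit without the 167 histone cluster models. On simulated data with Triptolide and DMSO group sizes, 14.9% of 1.5-fold and 52.2% of 2-fold changes were recovered with poly(A) selection, and 29.9% and 70.1% with rRNA depletion. In that simulation 18545 of 18745 and 15487 of 15687 models were unchanged, and no clutch effect was drawn. In the data 23.9% and 32.3% of models passed this contrast, which makes the adjusted threshold less strict. The recovered shares are therefore not the power for these transcripts.

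The labels give clutches and the study split each early sample into both libraries, which gives the pairing. Over models, the difference between clutches A and C at one stage correlated with that at another (r = 0.529 to 0.845). That between D and G did not (0.005 and 0.017). That between E and F was negatively correlated between 24 and 48 h (-0.379), and weakly so for the other pairs of ages (-0.0597 and -0.111).

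The 4 members, the comparisons and the list of similar models (the 2 with the highest Pearson r over stage means) were chosen with earlier results of these data known. The table pairs no model with a name, so other genes of the same pathways were not listed, and sequences were not used here.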

Additional observations from a re-analysis of the deposited data

Results flagged for a closer look

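For Xbp1 the change from the egg differed between library types by the test of the difference itself in 3 comparisons: the poly(A)+ change exceeded the rRNA-depleted change by 0.68 on the log2 scale at 4 h (edgeR, adjusted p = 0.0170), by 0.62 in DMSO at 7 h (adjusted p = 0.0400) and by 0.57 with Triptolide at 7 h (adjusted p = 0.0446). Of all models, 9.32%, 7.74% and 11.9% passed in these comparisons. Both 7 h calls were lost with RLE size factors (0.44 and 0.39), with library size scaling (0.54 and 0.40) and without the histone cluster models (0.40 and 0.34). Each of the 3 calls was also lost on leaving out some single library. The within-sample ratio of the 2 levels was higher than in every egg sample in 6 of 6 samples of these groups. It comes from the same libraries as the tests and is not separate evidence.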

How the results depend on the processing

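Of 128 tested changes of the 4 transcripts, 30 passed. Of their 1676 values under the alternatives, 1523 stayed on the same side of the threshold, 109 calls were lost (65 by leaving out a library), 44 were gained and 0 called values reversed. Of the 30 calls, 6 passed under every alternative run for them: MafF from 24 to 48 h and from 24 to 72 h, NF-kB at 5 h, at 6 h and in Triptolide against the egg in poly(A)+ libraries, and Xbp1 in Triptolide against the egg in rRNA-depleted libraries. The 5 h and 6 h stages have 1 poly(A)+ library each, from clutch B, which could not be left out. Those NF-kB calls therefore faced a weaker check than calls between replicated stages. The MafF rises start from its low 24 h stage, which may have helped to list it. The cause of the changes below was not tested.

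RLE size factors gave log2 changes of -0.19 for Xbp1 at 7 h (rRNA-depleted), 0.13 for Hif1a between Triptolide and DMSO (rRNA-depleted) and 0.44 for the Xbp1 library-type difference in DMSO. All 3 calls were lost. Library size scaling lost NF-kB from 24 to 72 h (0.56) and that Xbp1 difference (0.54). DESeq2 lost the first pair (-0.19 and 0.13) and gained Hif1a at 7 h (0.20, rRNA-depleted) and the Hif1a library-type difference in DMSO (-0.44). edgeR's filterByExpr gained Hif1a at 7 h (-0.34, poly(A)+) and the same Hif1a difference (-0.49), and lost the Xbp1 difference in DMSO (0.39). Without a filter this difference (0.62) and MafF at 4 h (0.61, poly(A)+) were lost, and without the histone cluster models the Xbp1 difference again (0.40). Fits of the compared groups alone lost Xbp1 at 7 h (-0.26, rRNA-depleted) and Xbp1 and NF-kB from 24 to 72 h (-0.72 and 0.72). They gained Hif1a at 7 h (-0.27, poly(A)+), NF-kB and MafF between Triptolide and DMSO (-0.46 and -0.51 with poly(A) selection, -0.20 and -0.23 with rRNA depletion) and the Hif1a difference in DMSO (-0.49).

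With the clutch as a replicate block, MafF at 7 h was lost (0.46) and NF-kB at 4 h gained (-0.28, rRNA-depleted), and with the sample pair as a replicate block the library-type differences of MafF at 4 h (0.90) and in DMSO (0.56) and the egg differences of NF-kB (0.33) and MafF (-0.50) were gained. Besides these and the changes given with the results, neither block changed another call. At 5, 6 and 7 h the clutch block could not be fitted in rRNA-depleted libraries. It moved the number of models passing from 3785 to 1249 at 5 h, 5624 to 2239 at 6 h, 9150 to 5656 at 7 h, 9575 to 5663 in DMSO and 5556 to 3349 in Triptolide against the egg in poly(A)+ libraries, and from 64 to 203 at 3 h and 552 to 863 at 4 h in rRNA-depleted libraries.

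Leaving out 1 library gave ranges of 0.55 to 0.77 for Xbp1 and 0.54 to 0.86 for MafF at 4 h, of -0.77 to -0.54 for NF-kB and 0.47 to 0.79 for MafF at 7 h, and of -0.67 to -0.52 for Xbp1 between Triptolide and DMSO and 0.55 to 0.91 for NF-kB from 24 to 72 h, all in poly(A)+ libraries. In rRNA-depleted libraries the Triptolide change ranged from -0.44 to -0.35 for Xbp1 and from 0.30 to 0.37 for Hif1a. The Xbp1 library-type difference ranged from 0.51 to 0.83 at 4 h and from 0.55 to 0.68 in DMSO, and the egg difference of MafF from -0.75 to -0.37.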
